A study of Homo sapiens with 13 samples.

Results

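The genes examined were GATA2, TAL1, LYL1, LMO2, FLI1 and ERG, which with RUNX1 form the stem cell heptad of transcription factors. They were taken by name from the 20033 protein-coding genes of the GENCODE version 44 annotation, and all 6 were found. Every peak of the RUNX1 and PTBP1 lists that touched a gene or the 50 kb on either side of it was collected, which gave 13 of 7688 RUNX1 peaks and 13 of 9370 PTBP1 peaks.

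Heptad factors belong to several DNA-binding families. GATA2 is a zinc finger protein that reads GATA sequences, TAL1 and LYL1 are related basic helix-loop-helix proteins that bind E-boxes together with an E protein, and FLI1 and ERG are ETS family factors. LMO2 does not bind DNA itself but bridges TAL1 or LYL1 to GATA factors, and in blood stem and progenitor cells the heptad proteins are known to gather at shared enhancers, including those of their own genes.

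The cells were MOLM-13, a widely used line derived from human acute myeloid leukemia, and their labels named no genotype change or treatment. RUNX1 is the DNA-binding subunit of core binding factor, and PTBP1 is an RNA-binding regulator of splicing. In CUT&Tag an antibody brings a transposase to the chromatin where its target lies, and in CUT&RUN it brings a nuclease. The series held 13 libraries: 2 biological replicates each of PTBP1 and of RUNX1 in either assay, 1 CUT&Tag library of the IgG control, and 2 replicates each of H3K27me3 and IgG by CUT&RUN. The values below come from a single RUNX1 list and a single PTBP1 list on the hg38 build, which name neither assay nor replicate and were taken as CUT&Tag lists, and they therefore carry no spread between replicates.

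Each peak carried a fold enrichment, the fragment pileup at its summit over the background with 1 added to each. Fold enrichment and p-value together fixed the number of fragments at the summit. The background of all 26 peaks was the usual value of its list, 0.330 fragments for RUNX1 and 0.720 for PTBP1, so levels were compared within a list and not between the lists. At these backgrounds the weakest called peak had 8 fragments in the RUNX1 list and 11 in the PTBP1 list, and a place without a peak is one below that level, not one shown to be unbound. A peak was placed at the TSS (transcription start site) when it came within 1 kb of the 5′ end of the gene, in the gene body when it touched the gene elsewhere, and as distal when it lay in the flanks.

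RUNX1 peaks were found at all 6 genes, against 52.8% of all protein-coding genes with a window drawn in the same way. LYL1 had 6, GATA2 and LMO2 had 2 each, and TAL1, FLI1 and ERG had 1 each. PTBP1 peaks were found at 4 of the 6 genes, against 52.1% of all protein-coding genes, with 10 at LYL1, 1 each at GATA2, LMO2 and FLI1, and none at TAL1 or ERG. Those 4 genes had peaks of both lists, as did 44.2% of protein-coding genes. LYL1 therefore held 6 of the 13 RUNX1 peaks and 10 of the 13 PTBP1 peaks, and without it 7 and 3 remained.

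**Figure D1:**
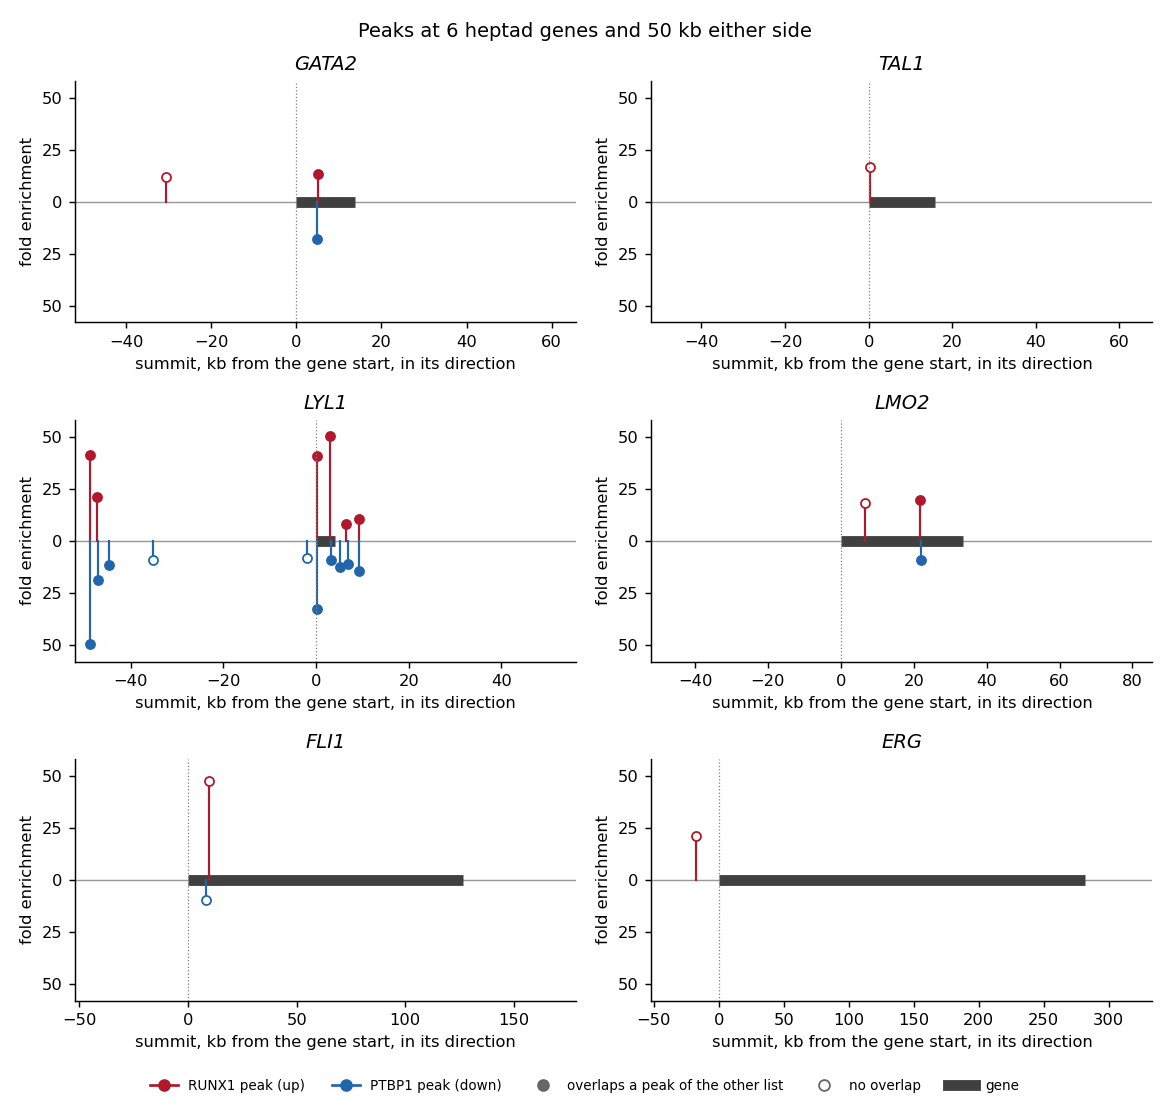
Peaks of both lists at each heptad gene, with the position of the summit in kb from the gene start on the horizontal axis, counted in the direction of transcription, and fold enrichment on the vertical axis. RUNX1 peaks point up and PTBP1 peaks point down, filled circles overlap a peak of the other list, and the dark bar is the gene. LYL1 carries most peaks of both lists, while TAL1 and ERG show RUNX1 peaks only.

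LYL1, the closest relative of TAL1, had the strongest RUNX1 peak of all 6 windows. The gene spans chr19:13099033-13103161 on the minus strand, and its window of 104.129 kb was the shortest. The strongest peak, at 13097972 to 13101679, was 3708 bases wide, had its summit in intron 3 and ran past the 3′ end of the gene. The summit had 66 fragments and a fold enrichment of 50.4, and 5.35% of RUNX1 peaks had at least that value. The DNA at this summit is shown as that of the strongest RUNX1 peak of the window. It held more RUNX motifs than any other summit of the windows, and capitals mark TGTGGT:
LYL1 intron 3, RUNX1 summit, hg38 chr19:13100200-13100300, plus strand: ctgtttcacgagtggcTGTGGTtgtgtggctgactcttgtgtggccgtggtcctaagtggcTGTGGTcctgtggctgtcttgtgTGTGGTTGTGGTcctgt
The 4 matches began 34 bases before the summit and 11, 34 and 40 bases after it, all on the plus strand, the last of them directly following its neighbour. Over the 3708 bases of the peak there were 10 matches, and how many a stretch of this length holds by chance was not computed. Runs of tgtgg recur between the 4 matches at the summit, and whether the matches are separate sites was not tested.

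A further RUNX1 peak at LYL1, at 13102235 to 13103658, covered the TSS with 53 fragments and a fold enrichment of 40.6. Its summit lay 125 bases inside the annotated gene and 178 bases upstream of the start of the canonical transcript. The PTBP1 peak there, at 13102390 to 13103742, had 55 fragments and a fold enrichment of 32.6, and its summit was 45 bases from that of RUNX1. LYL1 was thus the only heptad gene with peaks of both lists within 1 kb of its start, and both ranked high in their own list, at 8.73% for RUNX1 and 9.20% for PTBP1.

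PTBP1 was weaker in LYL1 intron 3. Its peak at 13099361 to 13099976 had 15 fragments and a fold enrichment of 9.30, which 78.8% of PTBP1 peaks reached, and its summit was 399 bases from the RUNX1 summit. The strongest peak of the RUNX1 list in the window and a weak peak of the PTBP1 list therefore shared an intron.

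The flanks of LYL1 held 4 RUNX1 and 8 PTBP1 peaks, and all of them lay in or at the start of other genes. Upstream, IER2, an immediate early gene, and STX10, a syntaxin of the Golgi, had starts close together near the edge of the window. The peak with its summit in intron 1 of IER2 had 84 fragments and a fold enrichment of 49.4 in the PTBP1 list. It was the strongest PTBP1 peak of the 6 windows. In the RUNX1 list it had 54 fragments and a fold enrichment of 41.4, with summits 1 base apart. In the 5′ UTR of STX10 the summits were 74 bases apart, with fold enrichments of 21.1 for RUNX1 and 18.6 for PTBP1. All of these peaks came within 1 kb of both gene starts. A PTBP1 peak of 11.6 lay in intron 4 of STX10.

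Between STX10 and LYL1 the PTBP1 list had a peak in coding exon 6 of NACC1, a nuclear BTB domain protein, with a fold enrichment of 9.30. It had another in coding exon 17 of TRMT1, a tRNA methyltransferase, with 8.14, centred 1.92 kb upstream of LYL1. Neither overlapped a RUNX1 peak. They were the only LYL1 window peaks of either list without a partner in the other.

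Downstream of LYL1 the peaks lay at the 3′ end of NFIX, a nuclear factor I gene. RUNX1 had a fold enrichment of 8.27 in the 3′ UTR and 10.5 in intron 10 of NFIX, and PTBP1 had 12.8 and 11.0 in the 3′ UTR and 14.5 in intron 10. These were weak within the RUNX1 list, where 94.98% and 78.98% of peaks reached the 2 values. When a peak was counted only if the nearest protein-coding start was that of the heptad gene, LYL1 kept 4 RUNX1 and 6 PTBP1 peaks.

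FLI1 had a single peak of each list, and they did not touch. The gene spans chr11:128686535-128813267 on the plus strand, and its canonical transcript starts 7537 bases inside it. The RUNX1 peak, at 128695669 to 128696474 in intron 1, had 62 fragments and a fold enrichment of 47.4, a value reached by 6.23% of RUNX1 peaks. Its summit was 1999 bases downstream of the canonical start, beside the start of SENCR, a long noncoding RNA gene on the opposite strand. The PTBP1 peak, at 128694579 to 128694934, was closer to the start, with its summit 602 bases downstream, and was weak, with 16 fragments and a fold enrichment of 9.88. The 2 peaks were 734 bases apart at their edges and 1397 bases apart at their summits. The sequences at the summits are shown for comparison of the 2 positions, with ETS motifs (AGGAAG) and RUNX motifs (TGTGGT) in capitals on either strand:
FLI1 intron 1, RUNX1 summit, hg38 chr11:128696021-128696121, plus strand: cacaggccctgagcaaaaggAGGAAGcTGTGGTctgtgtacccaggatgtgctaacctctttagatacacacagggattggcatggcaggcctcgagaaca
FLI1 intron 1, PTBP1 summit, hg38 chr11:128694624-128694724, plus strand: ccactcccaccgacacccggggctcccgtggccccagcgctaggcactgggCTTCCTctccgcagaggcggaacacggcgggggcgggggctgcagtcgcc
At the RUNX1 summit an ETS match and a RUNX match stood side by side with 1 base between them. The PTBP1 summit held an ETS match on the minus strand and no RUNX match.

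ERG, the other ETS factor, had a RUNX1 peak outside the gene and nothing within it. The gene spans chr21:38380027-38661780 on the minus strand, and neither list had a peak in its 281.754 kb, which include the canonical start 163303 bases from the 5′ end. The RUNX1 peak lay at 38679541 to 38679852, upstream of the gene, with its summit 17.994 kb from the 5′ end. It was 312 bases wide and had 27 fragments and a fold enrichment of 21.1, a value reached by 29.9% of RUNX1 peaks. The nearest PTBP1 peak was 151566 bases away. The sequence at the summit of this only RUNX1 peak of the window is shown, with AGGAAG and TGTGGT in capitals on either strand. It again places ETS and RUNX letters together:
ERG upstream, RUNX1 summit, hg38 chr21:38679724-38679824, plus strand: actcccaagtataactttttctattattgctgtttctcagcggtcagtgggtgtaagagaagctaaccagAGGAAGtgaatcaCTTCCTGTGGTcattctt
Here the last T of the minus-strand ETS match was also the first T of the RUNX match, so that these motifs overlapped by 1 base, and a further ETS match began 20 bases after the summit. Summits with an ETS and a RUNX match overlapping or at most 1 base apart made up 0.494% of the RUNX1 list, and 2 of the 13 in the windows were of this kind, those of FLI1 and ERG. This arrangement was looked for after the sequences had been seen.

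TAL1 had a RUNX1 peak at its TSS and no PTBP1 peak. The gene spans chr1:47216290-47232225 on the minus strand, and the peak, at 47231627 to 47232303, had 21 fragments and a fold enrichment of 16.5, which 43.96% of RUNX1 peaks reached. Its summit lay 370 bases inside the gene, in intron 1 of the canonical transcript and 140 bases upstream of the start of another transcript. The nearest PTBP1 peak was 81308 bases away. The sequence at the summit of this only RUNX1 peak of the window is shown. It held the RUNX motifs TGCGGT and TGTGGT, both read on the minus strand and so in capitals as their reverse complements:
TAL1 intron 1, RUNX1 summit, hg38 chr1:47231805-47231905, plus strand: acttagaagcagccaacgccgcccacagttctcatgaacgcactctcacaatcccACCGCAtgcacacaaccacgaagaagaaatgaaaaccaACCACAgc
The matches began 5 and 43 bases after the summit, and the whole peak held 4. At least 2 RUNX matches lay within 50 bases of 4.62% of RUNX1 summits, and at 2 of the 13 in the windows, those of TAL1 and of LYL1 intron 3. At least 4 lay at 0.364%, and at 1 of the 13. The thresholds of 2 and 4 are the counts at TAL1 and at LYL1 intron 3 themselves, so these summits meet them by construction.

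LMO2 had 2 RUNX1 peaks of like strength in its introns. The gene spans chr11:33858576-33892076 on the minus strand. The peak in intron 1, at 33885215 to 33885866, had 23 fragments and a fold enrichment of 18.0, lay 6.528 kb from the 5′ end and had no PTBP1 peak on it. The peak in intron 2, at 33869738 to 33870738, had 25 fragments and a fold enrichment of 19.5, and its summit was 18 bases downstream of the start of a shorter LMO2 transcript. The only PTBP1 peak of the gene, at 33869954 to 33870448, lay wholly inside it, with 15 fragments, a fold enrichment of 9.30 and a summit 104 bases away. Both RUNX1 summits are shown, the first for a GATA motif (AGATAA) and the second as that of the stronger peak. The second held an ETS motif (CGGAAG), and each motif is on the minus strand with its reverse complement in capitals:
LMO2 intron 1, RUNX1 summit, hg38 chr11:33885498-33885598, plus strand: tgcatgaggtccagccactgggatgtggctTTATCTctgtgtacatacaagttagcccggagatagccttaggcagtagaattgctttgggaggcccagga
LMO2 intron 2, RUNX1 summit, hg38 chr11:33870244-33870344, plus strand: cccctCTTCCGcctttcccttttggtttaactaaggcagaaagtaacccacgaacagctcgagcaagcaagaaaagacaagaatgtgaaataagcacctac
The GATA match began 20 bases before its summit, and the ETS match began 45 bases before the other. Neither window held a RUNX match, although elsewhere along their length the intron 1 peak had 3 and the intron 2 peak had 1.

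GATA2 came last of the 6 genes when they were ordered by their strongest RUNX1 peak. The gene spans chr3:128479427-128493201 on the minus strand. In intron 1 a RUNX1 peak, at 128487951 to 128488880, had 17 fragments and a fold enrichment of 13.5, which 58.03% of RUNX1 peaks reached. It lay wholly inside a PTBP1 peak, at 128487635 to 128489188, that had 30 fragments and a fold enrichment of 18.0, a value reached by 26.8% of PTBP1 peaks. Of the 4 genes with both lists, the strongest PTBP1 peak held a higher place in its list than the strongest RUNX1 peak did in its own at GATA2 and, through the peak at IER2, in the LYL1 window, and a lower one at LMO2 and FLI1. The summits were 329 bases apart, and starts of shorter GATA2 transcripts and of GATA2-AS1, a noncoding gene on the other strand, were close by. The sequence at this RUNX1 summit, that of the stronger RUNX1 peak of the window, is also shown. None of the motifs searched occurred in it and nothing is capitalised:
GATA2 intron 1, RUNX1 summit, hg38 chr3:128487992-128488092, plus strand: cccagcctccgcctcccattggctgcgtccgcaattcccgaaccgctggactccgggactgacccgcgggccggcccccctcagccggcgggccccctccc
These bases had a GC content of 77.2%, and the whole peak held no RUNX match. The other RUNX1 peak of GATA2, at 128523605 to 128523892, lay 30.525 kb upstream in intergenic DNA, with 15 fragments and a fold enrichment of 12.03. At 288 bases it was as narrow as any peak of the RUNX1 list.

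To determine where the peaks lay relative to gene starts, the 6 genes were set beside all protein-coding genes. A RUNX1 peak was at the TSS of 2 of them, TAL1 and LYL1, against 21.3% of all genes, and a PTBP1 peak at that of 1, LYL1, against 26.4%. In the gene body away from the TSS a RUNX1 peak was found at 4 genes, LYL1, LMO2, FLI1 and GATA2, against 11.5% of all genes, and a PTBP1 peak at the same 4, against 12.4%. By peaks, the RUNX1 list had 2 at a TSS, 5 in gene bodies and 6 distal, and the PTBP1 list had 1, 4 and 8.

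Much of the gene-body count depended on which start was used. The heptad genes have several, from 3 distinct transcript starts at LYL1 to 11 at ERG. With the start of any annotated transcript as the TSS, RUNX1 peaks were at a TSS in 4 genes (GATA2, TAL1, LYL1 and LMO2), against 25% of all genes, and PTBP1 peaks in 4 (GATA2, LYL1, LMO2 and FLI1), against 30.3%. The gene-body peaks then numbered 3 for RUNX1 and 1 for PTBP1. The share of all genes with such a peak was not computed for this definition, and the 11.5% and 12.4% above are not its counterpart. The RUNX1 peaks that stayed away from every annotated start of their gene were those in LYL1 intron 3, LMO2 intron 1 and FLI1 intron 1.

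**Figure D2:**
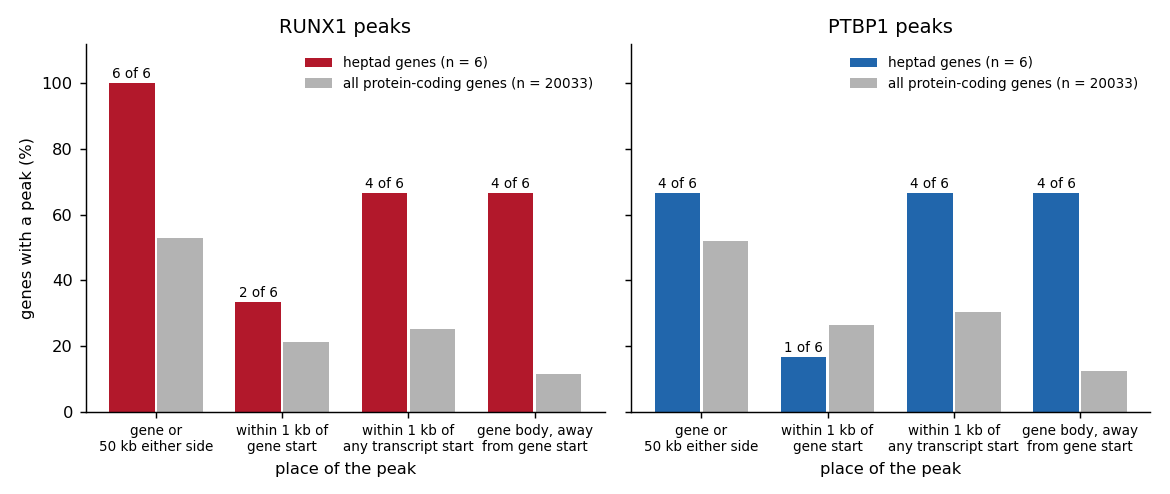
Percent of the 6 heptad genes (coloured bars, with the number of genes above) and of all 20033 protein-coding genes (grey bars) that had a RUNX1 peak (left) or a PTBP1 peak (right), by the place of the peak. The gene-body bars leave out only peaks at the gene start, not those at other transcript starts. They stand at 4 of 6 genes in both lists, beside 11.5% and 12.4% of all genes. PTBP1 was at the gene start of 1 of 6 genes, beside 26.4%.

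Because the windows ranged from 104.129 kb at LYL1 to 381.754 kb at ERG, peaks were also counted per length. LYL1 had 5.76 RUNX1 peaks and 9.60 PTBP1 peaks per 100 kb. These include the 4 RUNX1 and 8 PTBP1 peaks of its flanks, which lay in or at the start of other genes. GATA2 followed with 1.76 and 0.879, LMO2 with 1.498 and 0.749, TAL1 with 0.863 and 0, FLI1 with 0.441 for each list, and ERG with 0.262 and 0. The median over the 6 genes was 1.18 for RUNX1 and 0.595 for PTBP1, beside 0.393 and 0.379 over all protein-coding genes. As many RUNX1 peaks as LYL1 were found at 2.05% of all genes and as many PTBP1 peaks at 4.10%, whereas 28.3% had at least the 2 RUNX1 peaks of GATA2 or LMO2.

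The order of the genes by their strongest RUNX1 peak was LYL1, FLI1, ERG, LMO2, TAL1 and GATA2. An exact Poisson interval (95%, counting error only) for the fragments at the summit was 51.0 to 84.0 at LYL1 and 47.5 to 79.5 at FLI1. It was 17.8 to 39.3 at ERG, 16.2 to 36.9 at LMO2, 13.0 to 32.1 at TAL1 and 9.90 to 27.2 at GATA2. LYL1 and FLI1 thus stood above the other 4 genes, and within either group neighbours did not differ beyond counting error. The 13 RUNX1 peaks had a median fold enrichment of 19.5 and a median width of 806 bases, against 15.04 and 645 bases for the whole list, and the 13 PTBP1 peaks had 11.6 and 872 bases, against 12.2 and 652 bases.

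**Figure D3:**
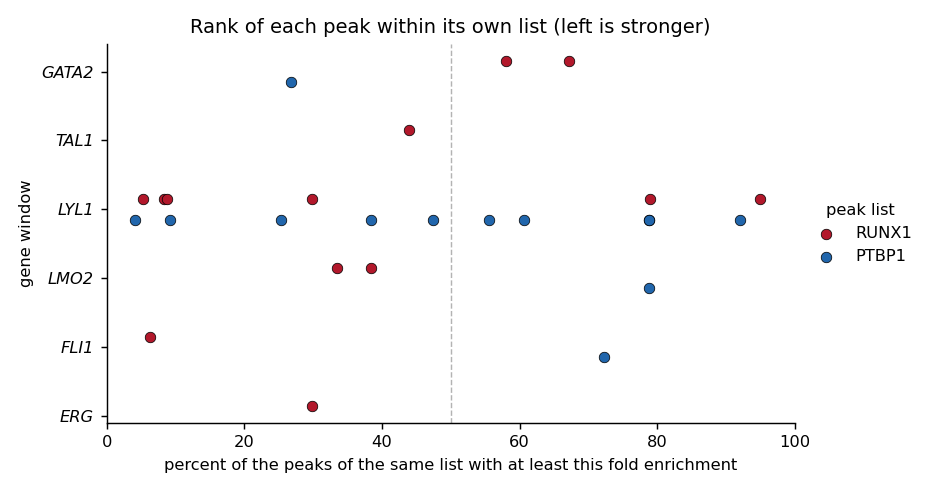
Strength of each peak within its own list, as the percent of peaks of that list with at least the same fold enrichment, for the windows of the 6 genes, with the strongest peaks on the left. RUNX1 has 4 peaks in the top 10%, 3 in the LYL1 window and 1 at FLI1, and PTBP1 has 2, both in the LYL1 window; 2 PTBP1 peaks of LYL1 coincide at 78.8%.

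To determine whether RUNX1 and PTBP1 were called at the same places, overlaps were counted in each window. Over the 6 windows 8 of 13 RUNX1 peaks shared at least 1 base with a PTBP1 peak, or 61.5% (95% Wilson interval 35.5 to 82.3), close to the 60.2% of the whole RUNX1 list. In the LYL1 window it was 6 of 6, and in the other 5 windows 2 of 7, or 28.6% (8.22 to 64.1), an interval that includes the share of the whole list. Of the PTBP1 peaks, 10 of 13 overlapped a RUNX1 peak, or 76.9% (49.7 to 91.8), against 49.2% of the whole PTBP1 list. These were 8 of 10 in the LYL1 window and 2 of 3 in the other 5 windows. The latter share was 66.7% (20.8 to 93.9), an interval that includes that of the whole PTBP1 list. The intervals treat peaks as independent, although most PTBP1 peaks shared the LYL1 window. When summits had to be at most 200 bases apart the share was 38.5% in either list. The whole-list shares above are for a shared base and are not its counterpart. Merging both lists gave 16 regions, of which 8 were shared, 5 held RUNX1 only (the distal region of GATA2, TAL1, intron 1 of LMO2, FLI1 and ERG) and 3 held PTBP1 only (2 in the LYL1 window and 1 at FLI1).

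Next, the DNA within 50 bases of each summit was searched on both strands for the motifs of the heptad families. The RUNX motif was taken as TGTGGT or TGCGGT. The motif of GATA factors was taken as AGATAA or TGATAA. The ETS motif was taken as AGGAAG or CGGAAG. The E-box was taken as CAGCTG or CAGATG. A match is a run of letters and not a measured binding site. RUNX motifs were found at 4 of the 13 RUNX1 summits, or 30.8% (12.7 to 57.6), against 24.2% of all RUNX1 summits. These were TAL1, LYL1 intron 3, FLI1 and ERG. ETS motifs were found at 8, or 61.5% (35.5 to 82.3), against 22.9% of all RUNX1 summits, in the windows of GATA2, LYL1, LMO2, FLI1 and ERG. The 4 in the LYL1 window were at the LYL1 TSS, in intron 1 of IER2, in the 5′ UTR of STX10 and in the 3′ UTR of NFIX.

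A GATA motif was found at 1 RUNX1 summit, in LMO2 intron 1, against 3.66% of the list, and no E-box at any, which allows a share of up to 22.8%, against 11.1% of the list. At least 1 of the GATA, ETS and E-box motifs was present at 9 of the 13, against 34% of the list. Of the 4 summits with a RUNX motif, FLI1 and ERG had ETS beside it, and TAL1 and LYL1 intron 3 had no motif of the other families. At PTBP1 summits ETS motifs were found at 4 of 13, against 19.5% of the PTBP1 list, 3 of them in the LYL1 window and 1 at FLI1. No PTBP1 summit of the windows had a RUNX, GATA or E-box motif, against 8.79%, 1.99% and 11.3% of the list.

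**Figure D4:**
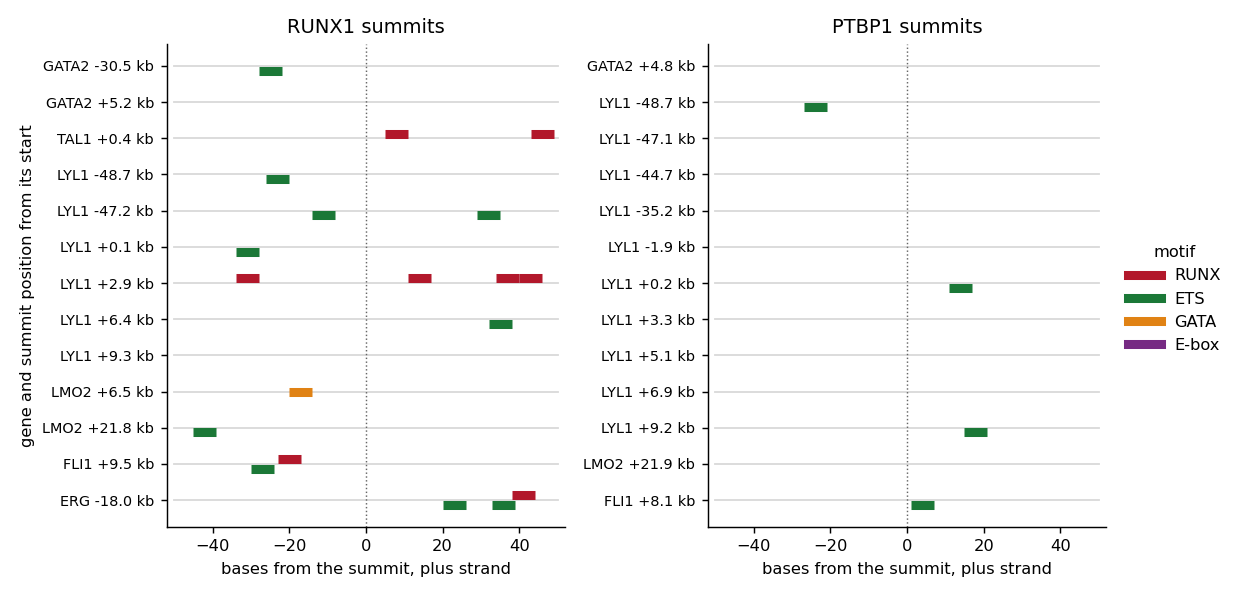
Motif matches within 50 bases of the RUNX1 summits (left) and PTBP1 summits (right) of the 6 windows, with each row a peak named by its gene and its distance from the gene start, and the horizontal axis in bases from the summit. RUNX and ETS matches adjoin at FLI1 and ERG, RUNX matches stand alone at TAL1 and LYL1, the single GATA match is at LMO2, and no E-box match was found.

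The genes were then compared with their protein partners and relatives. The 10 partners are proteins that join LMO2, TAL1 or LYL1 on DNA, namely the bridging factors LDB1 and LDB2, the single-stranded DNA-binding proteins SSBP2, SSBP3 and SSBP4 that stabilise them, the E proteins TCF3, TCF4 and TCF12, and the corepressors CBFA2T2 and CBFA2T3. A RUNX1 peak lay in the window of 8 and at the TSS of 5, beside 52.8% and 21.3% of all protein-coding genes. A PTBP1 peak lay in the window of 7 and at the TSS of 4, beside 52.1% and 26.4%. Peaks of both lists were at the TSS of SSBP2 (fold enrichment 20.3 for RUNX1 and 19.2 for PTBP1), TCF3 (15.6 and 12.98), SSBP4 (25.6 and 24.998) and CBFA2T2 (15.8 and 19.2), as at LYL1 among the heptad genes. TCF12 had RUNX1 alone at its TSS, with 12.03. LDB1 had 3 distal PTBP1 peaks and no RUNX1 peak, and LDB2 had neither. The windows of these genes were longer, with a median of 274 kb beside 124.7 kb for the heptad genes.

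The 12 relatives were GATA1, GATA3, GATA4, GATA5, GATA6, TAL2, LMO1, LMO3, LMO4, FEV, ETS1 and ETS2. Of these, 3 (GATA1, GATA4 and ETS2) had a RUNX1 peak in the window, beside 52.8% of all protein-coding genes, and all were distal, with a highest fold enrichment of 22.6 near GATA1, the erythroid and megakaryocytic GATA factor. PTBP1 peaks lay in the windows of 6 and at the TSS of 1, GATA6, with 9.30, beside 52.1% and 26.4% of all genes. LMO4, FEV, GATA3, LMO1, ETS1 and LMO3 had no peak of either list. In the gene body away from the gene start a RUNX1 peak was found at 0 of the 12 relatives and 3 of the 10 partners, beside 11.5% of all protein-coding genes. A PTBP1 peak was found there at 0 relatives and 4 partners, beside 12.4%. The only RUNX1 peak of SSBP3, CBFA2T3 and TCF4, the 3 partners counted here, lay within 1 kb of the start of another transcript. With the start of any transcript as the TSS, RUNX1 was at a TSS of 8 partners and 0 relatives, beside 25% of all genes. PTBP1 was at a TSS of 6 partners and 1 relative, beside 30.3%. The remaining heptad gene, RUNX1 itself, had 11 RUNX1 and 4 PTBP1 peaks in a window of 1316.87 kb, or 0.835 and 0.304 per 100 kb, which lay between TAL1 and FLI1 for RUNX1 peaks.

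Finally, genes with the same 6 counts (peaks of either list at the TSS, in the body and distal) were sought among all protein-coding genes. LYL1 shared its counts with 1 other gene, NUDT22. LMO2 shared its counts with 28 genes, GATA2 with 37, FLI1 with 192, TAL1 with 348 and ERG with 682. Beyond the windows, the next RUNX1 peak was closest at LYL1, 50.96 kb from the gene, and lay 81.5 kb from TAL1, 89.9 kb from ERG, 157 kb from GATA2, 213 kb from LMO2 and 646.5 kb from FLI1, upstream in every case.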

How the data were processed

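CUT&Tag and CUT&RUN libraries of MOLM-13 cells were made with antibodies to PTBP1, RUNX1 and H3K27me3, and with IgG. After adapter clipping, the authors mapped read pairs to the hg38 build (Bowtie2), discarded duplicates and pairs of low mapping quality, and used MACS3 for peak calling, with 1e-07 as the q-value threshold. The deposited lists give, for each peak, a score (the −log10 q-value times 10 without its decimals), a ratio (the fold enrichment of the summit over the background), and the −log10 p-value and −log10 q-value. Whether replicates were pooled is not stated, and library depths were not used here.

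The fragments and background of each summit were solved from the deposited fold enrichment and −log10 p-value under a Poisson model, and this step, the overlaps and the motif search were tested on simulated data. A higher background needs more fragments for a call. Whether weak PTBP1 sites were left out more often than weak RUNX1 sites was not tested, because that also depends on library depth. Genes, transcripts, exons and UTRs were those of GENCODE version 44, features were read at the summit in the canonical transcript, and coordinates are 1-based. Sequences were read from hg38 and those touching a UTR were not shown. Sequence was shown for the strongest peak of a gene in a list or a RUNX1 peak in the top 10%. The summits at IER2, which is outside LYL1, and the PTBP1 summit of LMO2 were left out, and LMO2 intron 1 was added after its motif had been seen.

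The named genes were the 6 members, genes at a peak of their windows, RUNX1, and the lists of partners and relatives. Genes alike were those with the smallest Manhattan distance over the 6 counts, named where at most 3 tied. The members, lists and alternatives were chosen with earlier results of these data known, so counts are given beside those of all genes or peaks and without tests. The software was pysam 0.24.0, scipy 1.17.1, pandas 2.3.3, numpy 2.4.6 and matplotlib 3.10.9 under Python 3.11.15.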

Additional observations from a re-analysis of the deposited data

How the results depend on the processing

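Recomputed values stayed within 1.5 times the reported count, or within its interval, in 51 cases and moved further in 6. The settings varied were the significance of peaks, the flank (25 or 100 kb), the TSS definition and its width, the background, the assignment to the nearest start, the overlap rule and the motif. The significance cut (−log10 q of at least 10) removed no peak of the windows, where the lowest value was 10.1. Leaving out peaks with a background above 1.5 times the usual one also removed none. Values for the windows could not move under these settings, yet they count among the 51. With the canonical transcript start, 2 genes had PTBP1 at the TSS. With any transcript start, 4 genes had RUNX1 and 4 had PTBP1 there, and gene-body peaks numbered 3 and 1. Summits at most 200 bases apart gave an overlap of 38.5% for RUNX1, inside its interval, and 38.5% for PTBP1, below its interval. Leaving out LYL1, chosen after seeing the data, left 7 RUNX1 and 3 PTBP1 peaks, 1 gene with RUNX1 and 0 with PTBP1 at the TSS, and a RUNX1 overlap of 28.6%. With 6 genes and single lists, shares are coarse. No paired analysis was possible because each target has a single list without replicates.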
